A study of Macaca fuscata with 12 samples.

Results

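The transcripts of BDNF, NTF3, NTF4, NTRK3 and NGFR, which encode the secreted neurotrophins BDNF, NT-3 and NT-4 and a pair of neurotrophin receptors, were examined in parietal cortex of Japanese macaques (Macaca fuscata) trained to use a tool and of control animals. The members were chosen by name, as every probe set of the array whose annotation held 1 of these symbols and no other. This gave 13 probe sets of 52766 tested, and 5 genes of the 14132 genes that had a symbol of their own. BDNF had 3 probe sets, NTF3 had 1, NTF4 had 3, NTRK3 had 4 and NGFR had 2. Other genes of the family were not analysed here.

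Each of the 12 arrays, of the Affymetrix rhesus macaque design, held total RNA from tissue of the left hemisphere of 1 animal, with 3 arrays in each of 4 groups. The IPS samples came from around the intraparietal sulcus and the SII samples from around the lateral sulcus, secondary somatosensory cortex included. The IPS trained arrays were from males aged 5 years 7 months, 6 years and 5 years 1 month, with tool-use training. The IPS control arrays were from males aged 5 years 4 months, 5 years 10 months and 3 years 9 months. The SII trained arrays were from a male aged 5 years 7 months, a female aged 3 years 10 months and a male aged 5 years 1 month, with tool-use training. The SII control arrays were from a female aged 4 years 6 months and males aged 5 years 4 months and 5 years 10 months. The animals numbered 8, of which 4 gave both regions (2 trained and 2 control), so the 4 groups are not of 12 separate animals. The labels give neither the length of the training nor the treatment of the controls. Because the probes were designed on the rhesus genome, a probe may match the Japanese macaque transcript imperfectly.

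Neurotrophins are small secreted proteins made as longer precursors, which proteases cut to the mature form. A mature neurotrophin binds a receptor tyrosine kinase of the Trk family, which starts signalling through adaptor proteins to the MAP kinase, PI3 kinase and phospholipase C pathways and supports survival, growth and synaptic strength of neurons. All of them, precursors included, can also bind the p75 neurotrophin receptor, which has no kinase and signals through other partners. In rodent cortex, transcription of BDNF is known to follow neuronal activity, which is why the gene is often measured after training.

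The deposited values were on a log scale, taken as log2, and each probe set's median over the 12 arrays had been set to 0. A value is therefore a position relative to the same probe set's median, and levels of different probe sets or genes cannot be set against each other. The lowest signals on each array were held at a shared floor. The spacing of the values above it placed the floor at a signal of 1, and from the same spacing each probe set was put in a rough class. Of the 13 probe sets, 5 were in the middle class, with no sign of a signal under 16 in at least 11 arrays, 4 were in the low class, and 4 touched the floor. Those 4 were BDNF probe set 3, NTF4 probe sets 1 and 3 and NGFR probe set 1, and 11 of the 156 member values lay at the floor. A floor value bounds the signal from above only, and the position of the floor on the deposited scale differed by up to 1.67 log2 between arrays. Signals close to the floor seldom showed the spacing of a signal under 16. Very low signals may therefore have been placed in the middle class.

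The tissue label was checked against cell markers. All 7 measured excitatory neuron markers, 6 GABA neuron markers, 4 astrocyte markers and 2 oligodendrocyte markers (of 7 listed) had a probe set in the middle or the high class. So did 4 of 6 microglia, 4 of 5 endothelial and pericyte and 6 of 7 meninges and fibroblast markers. The 3 red blood cell markers were in the low class. Of all probe sets, 38.9% were in the middle and 8.48% in the high class. The classes thus do not set neural cells apart from vessels or meninges. The arrays that stood apart were 3, by their hybridisation controls, which averaged 0.44 in IPS trained array 3, 0.54 in SII trained array 2 and 0.48 in SII control array 1, against -0.13 to 0.08 in the other 9. SII trained array 2 and SII control array 1 were also the samples of the female animals. The mean of the 3 red blood cell markers lay between -0.43 and 1.81 in SII trained arrays, against -0.27 to 0.25 in SII control arrays. It lay between -0.05 and 0.38 in IPS trained arrays, against -0.16 to 0.12 in IPS control arrays. In tissue pieces of mixed cells, fewer cells of a type and less RNA per cell cannot be told apart.

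Changes with training were taken as trained minus control within a region, from limma fits over all 12 arrays that allowed for animals measured in both regions. Because of that allowance, a fitted change can differ slightly from the difference of the group means. No probe set of any gene passed 5% after Benjamini-Hochberg adjustment in limma, in IPS (0% of 52766, with 1726 or 3.27% at an unadjusted p under 0.05) or in SII (0%, with 2043 or 3.87%). Of the 13 neurotrophin and receptor probe sets, 2 had an unadjusted p under 0.05 in IPS and 0 in SII. The adjusted p was 0.9999 for all 13 in IPS and 1 for all 13 in SII. With 3 arrays against 3, an exact permutation test of a single probe set cannot go below p = 0.10. Nothing in the labels says whether arrays of a group were run from separate extractions, beyond the animals being separate.

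BDNF, the neurotrophin most often tied to activity-dependent plasticity, showed no change that exceeded the spread between animals. Probe set 1 (MmuSTS.1378.1.S1_at), in the middle signal class, had 0.51, -0.15 and -0.56 in IPS trained arrays, against 0.09, 0.15 and -0.47 in IPS control arrays. It had -0.06, -0.12 and 0.07 in SII trained arrays, against -0.51, 0.06 and 0.39 in SII control arrays. Trained and control arrays overlapped in both regions, and the SII trained values lay within the range of the SII control values. The change was 0.02 ± 0.33 (SE) in IPS, with a 95% interval of -0.72 to 0.75, and -0.02 ± 0.33 in SII, with an interval of -0.75 to 0.72. For this probe set, an increase or a decrease of 1 log2 unit lay outside both intervals.

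The other BDNF probe sets varied more. Probe set 2 (MmugDNA.24032.1.S1_at), in the low class, had -2.14, 0.89 and -2.17 in IPS trained arrays, against 1.12, -2.57 and 1.65 in IPS control arrays. In SII it had 0.02, -0.02 and 0.08 in trained arrays, against 1.70, -1.32 and -2.02 in control arrays. The IPS and SII control arrays spread over more than 3 log2 units while the SII trained arrays nearly coincided, and the groups overlapped in both regions. The fitted changes were -1.25 ± 1.27 in IPS and 0.58 ± 1.27 in SII. Probe set 3 (MmugDNA.42959.1.S1_at) had -0.12, 0.40 and 1.01 in IPS trained arrays, against -0.42, 0.55 and 0.05 in IPS control arrays. In SII, where trained array 2 and control array 1 lay at the floor, it had 2.88, -0.05 and -0.75 in trained arrays, against -0.35, -0.06 and 0.76 in control arrays. The 2.88 of SII trained array 1 was the highest reading of that probe set and lay 3.84 log2 above the floor. The 3 BDNF probe sets did not move together over the 12 arrays, which are shared by all of them: Pearson's r was -0.52 between probe sets 1 and 2, -0.06 between 1 and 3, and -0.23 between 2 and 3. Averaged over its probe sets, BDNF differed by -0.30 ± 0.41 in IPS and 0.38 ± 0.41 in SII, the second of which was 0.01 without SII trained array 1.

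**Figure D1:**
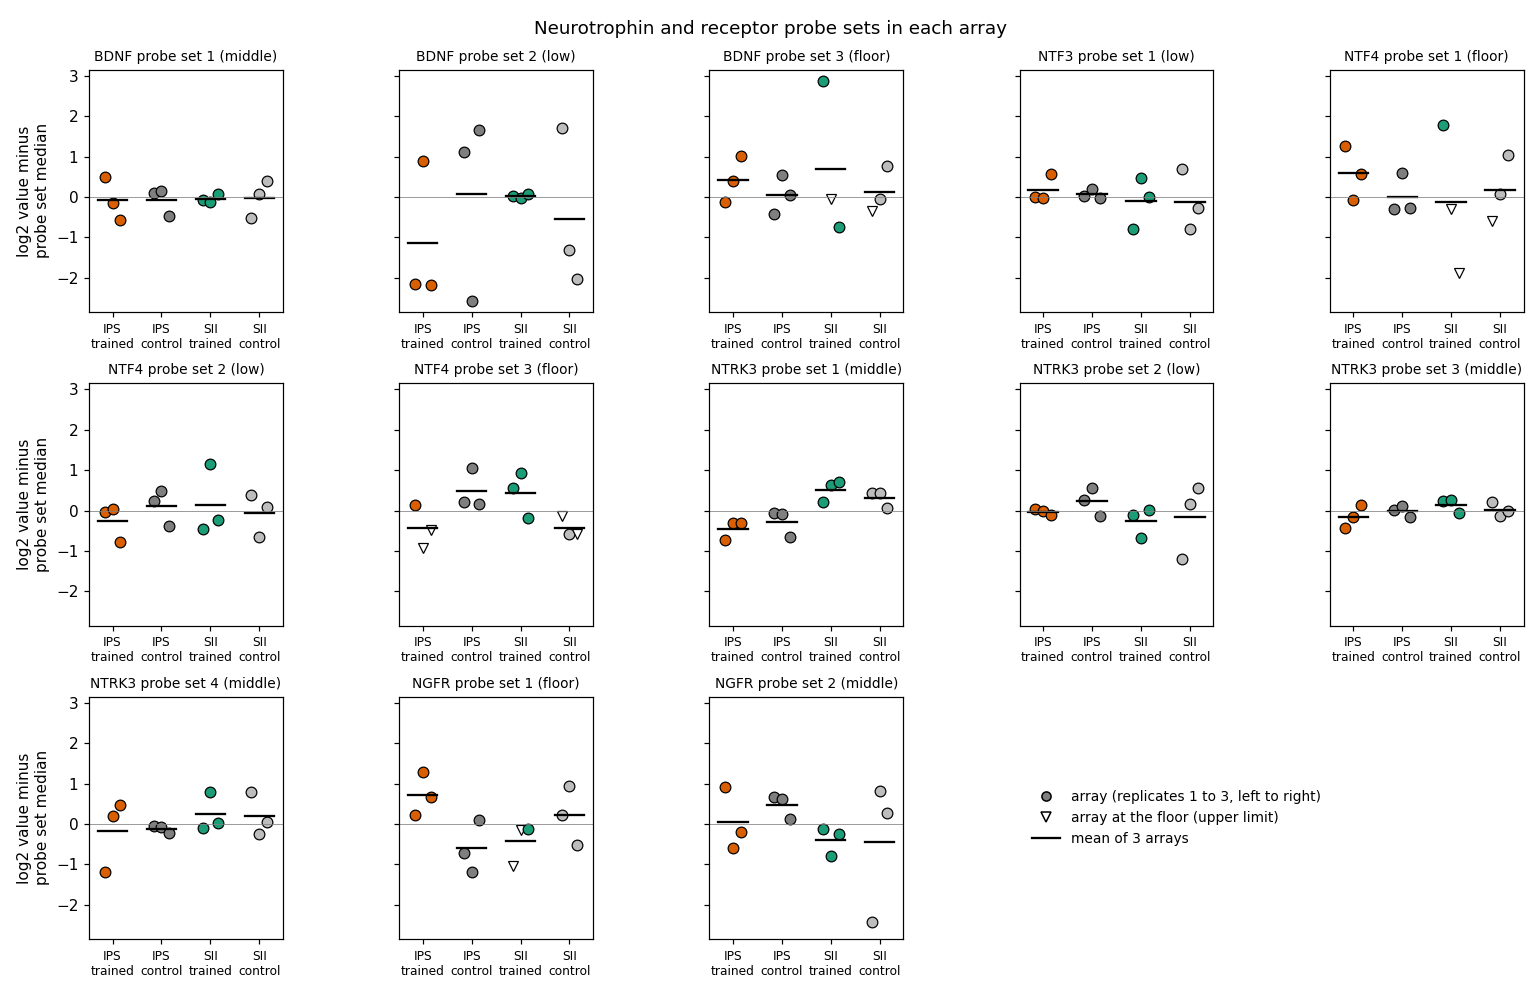
Deposited log2 values of the 13 probe sets of BDNF, NTF3, NTF4, NTRK3 and NGFR, each relative to its own median over the 12 arrays (y axis), in IPS trained, IPS control, SII trained and SII control arrays (x axis, 3 points a group, open triangles where the value lay at the floor, a bar for the mean). The points of BDNF probe set 2 spread from -2.57 to 1.70, whereas those of NTRK3 probe set 3 stay between -0.42 and 0.26.

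NTF3 encodes NT-3, the ligand preferred by the TrkC receptor, and is best known for its high level in the developing brain. Its only probe set (MmugDNA.17344.1.S1_at) had signals shown to be under 16 in 9 of 12 arrays. It had -0.00, -0.02 and 0.57 in IPS trained arrays, against 0.03, 0.20 and -0.02 in IPS control arrays. In SII it had -0.79, 0.48 and 0.00 in trained arrays, against 0.69, -0.79 and -0.27 in control arrays. The groups overlapped in both regions, and the training change was 0.11 ± 0.41 in IPS and 0.02 ± 0.41 in SII. Its 3 highest values, 0.48 to 0.69, were those of the 3 arrays with raised hybridisation controls, and the other 9 arrays ended at 0.20. Of all probe sets, 3.4% had those 3 arrays on top. The part of the hybridisation in these values was not tested.

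NTF4 encodes NT-4, which shares its Trk receptor with BDNF and is known for low levels in adult brain. Probe set 3 (MmugDNA.26238.1.S1_at) had 0.13, -0.93 and -0.49 in IPS trained arrays, against 0.22, 1.05 and 0.15 in IPS control arrays. In SII it had 0.55, 0.92 and -0.19 in trained arrays, against -0.13, -0.57 and -0.58 in control arrays. All IPS trained values lay below all IPS control values, as 3.72% of all probe sets did, whereas the SII groups overlapped. Of its 12 values, 4 lay at the floor (IPS trained arrays 2 and 3 and SII control arrays 1 and 3), and none lay more than 2.02 log2 above it. The change was -0.90 ± 0.39 in IPS (unadjusted p = 0.0412, adjusted p = 0.9999 in limma) and 0.85 ± 0.39 in SII. The IPS change differed from the SII change by -1.75 ± 0.54 (unadjusted p = 0.00828, adjusted p = 0.9999 in limma, where 0% of probe sets passed 5% and 3.68% had an unadjusted p under 0.05). With every array's values held at 1 common floor, these became -0.31 ± 0.26 in IPS, 0.39 ± 0.26 in SII and -0.70 ± 0.36 for the difference. Without the 3 arrays with raised hybridisation controls they were -0.90, 0.74 and -1.64.

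The other NTF4 probe sets gave changes of other sizes and signs. Probe set 2 (MmuSTS.3306.1.S1_s_at) had -0.03, 0.03 and -0.78 in IPS trained arrays, against 0.23, 0.48 and -0.39 in IPS control arrays, and differed by -0.36 ± 0.47. In SII it had -0.47, 1.14 and -0.24 in trained arrays, against 0.38, -0.66 and 0.09 in control arrays, and differed by 0.22 ± 0.47. Both pairs of groups overlapped. Probe set 1 (MmuSTS.3306.1.S1_at), which lay at the floor in SII trained arrays 2 and 3 and in SII control array 1, ranged from -1.88 to 1.79 and differed by 0.59 ± 0.80 in IPS and -0.31 ± 0.80 in SII. As a mean of its 3 probe sets, NTF4 differed by -0.22 ± 0.39 in IPS and 0.26 ± 0.39 in SII.

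NTRK3 encodes TrkC, the receptor tyrosine kinase for NT-3. Of the 5 genes it had the most probe sets in the middle class, 3 of its 4. Its training changes were small in both regions. Over the 4 probe sets they lay between -0.25 and -0.06 in IPS and between -0.10 and 0.22 in SII. Averaged over probe sets, NTRK3 differed by -0.16 ± 0.20 in IPS (95% interval -0.60 to 0.29) and 0.08 ± 0.20 in SII (-0.36 to 0.53). These intervals leave out a change of 1 log2 unit in either direction.

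Probe set 1 of NTRK3 (MmugDNA.17854.1.S1_at) separated the regions. It had -0.73, -0.30 and -0.32 in IPS trained arrays and -0.07, -0.10 and -0.66 in IPS control arrays. It had 0.22, 0.64 and 0.70 in SII trained arrays and 0.43, 0.43 and 0.07 in SII control arrays. All 6 IPS arrays lay below all 6 SII arrays, as did 0.345% of all probe sets, with 0.984% apart in either direction. Averaged over training, IPS minus SII was -0.77 ± 0.18 (95% interval -1.17 to -0.38, unadjusted p = 0.0014, adjusted p = 0.384 in limma, where 0% of 52766 probe sets passed 5% and 9.26% had an unadjusted p under 0.05). It thus did not pass the adjusted threshold, and it was -0.73 without the 3 arrays with raised hybridisation controls. In the 4 animals with both regions the difference was -0.95 and -1.02 in the trained animals and -0.50 and -0.16 in the control animals, lower in IPS in 4 of 4, as in 7.06% of all probe sets.

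The other NTRK3 probe sets did not repeat this separation. Probe set 2 (MmugDNA.24910.1.S1_at), in the low class, ranged from -1.19 in SII control array 1 to 0.57 in SII control array 3, with an IPS minus SII difference of 0.30 ± 0.29. Probe set 3 (MmugDNA.29582.1.S1_at) ranged only from -0.42 to 0.26, with a difference of -0.15 ± 0.16. The difference was -0.36 ± 0.31 in probe set 4. Probe set 4 (MmugDNA.33101.1.S1_s_at) ranged from -1.19 in IPS trained array 1 to 0.80 in SII trained array 2 and in SII control array 1. Its 3 highest values, 0.46 to 0.80, were again those of the 3 arrays with raised hybridisation controls, and the other 9 ended at 0.21. Probe sets 3 and 4 moved together over the 12 arrays (r = 0.80), both moved less closely with probe set 1 (r = 0.58 and 0.57), and probe set 2 ran against all of them (r = -0.57 to -0.32). The files do not say which transcript forms each probe set covers. As a mean of 4 probe sets, the IPS minus SII difference of NTRK3 was -0.24 ± 0.14 (unadjusted p = 0.105, adjusted p = 0.548 in limma, where 10.7% of gene means had an unadjusted p under 0.05).

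Other measures were set side by side for the regions. The actin 3′ minus 5′ difference, a sign of RNA quality, lay between -0.79 and 1.37 in IPS arrays and between -1.87 and 1.17 in SII arrays. The same difference for GAPDH lay between -0.24 and 0.89 in IPS arrays and between -0.51 and 0.77 in SII arrays. Both pairs of ranges overlapped. Actin lay below all IPS arrays in SII control arrays 2 and 3 and SII trained array 3 (-1.87, -1.71 and -1.54). For GAPDH, SII trained arrays (0.77, -0.05 and -0.23) all lay above SII control arrays (-0.31, -0.27 and -0.51). IPS trained arrays (-0.24, 0.16 and 0.89) and IPS control arrays (0.28, -0.02 and -0.10) overlapped. The part of RNA quality in the training changes was not tested. The mean of the 6 microglia markers lay between -0.77 and 0.00 in IPS arrays and between -0.28 and 0.44 in SII arrays, with 0 of 6 higher in IPS. Their part in the NTRK3 difference was not tested. The labels name IPS and SII arrays in different ways, so a set of arrays run together and the region cannot be told apart.

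**Figure D2:**
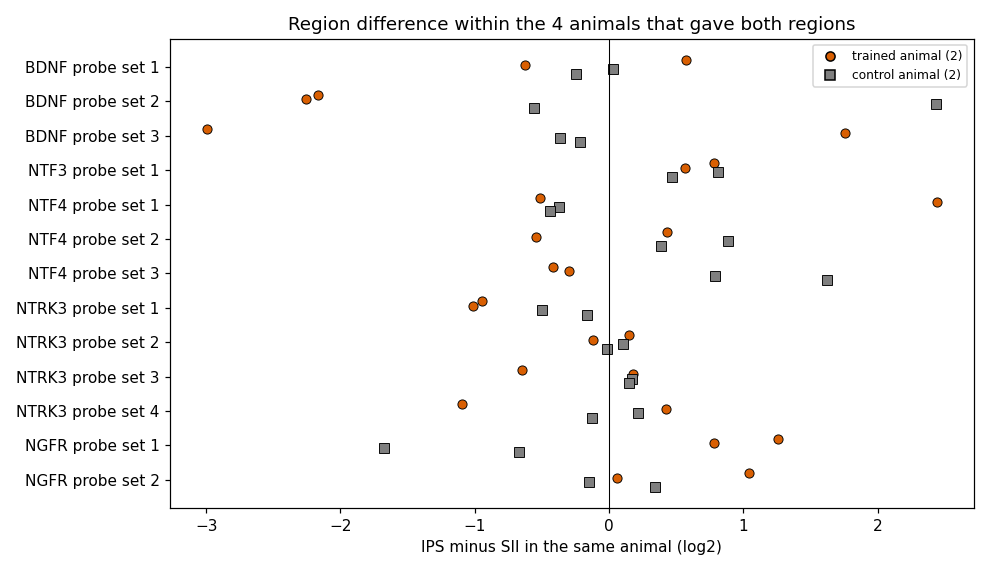
IPS minus SII difference (log2, x axis) of each probe set (y axis) within the 4 animals that gave both regions, circles for trained and squares for control animals. NTRK3 probe set 1 lies below 0 in all 4 animals, as do 7.06% of all probe sets, and NTF3 probe set 1 above 0 in all 4, as do 9.07%.

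For NTF3 the differences within animals had the other sign. IPS minus SII was 0.78 and 0.56 in the trained animals and 0.81 and 0.47 in the control animals, higher in IPS in 4 of 4, as in 9.07% of all probe sets. Over all 12 arrays the difference was 0.25 ± 0.29 (unadjusted p = 0.4, adjusted p = 0.794 in limma), and without the 3 arrays with raised hybridisation controls it was 0.51 (adjusted p = 0.534). With sex as a covariate it was 0.59 (unadjusted p = 0.023, adjusted p = 0.659), and with 1 array left out it lay between 0.05 (without SII trained array 1) and 0.45 (without SII control array 1). The SII arrays left out of the comparison within animals, which were those of the females, were among its 3 highest. Of the other 11 member probe sets, none differed in 1 direction in all 4 animals. With 1 of 13 members in each direction, the members were near the shares over all probe sets (9.07% higher and 7.06% lower).

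NGFR encodes the p75 receptor, which in adult forebrain is best known from cholinergic neurons of the basal forebrain. Its 2 probe sets gave fitted changes of opposite sign in IPS. Probe set 1 had 0.22, 1.28 and 0.67 in IPS trained arrays, against -0.73, -1.19 and 0.11 in IPS control arrays. All IPS trained values lay above all IPS control values, as in 5.77% of all probe sets. In SII it had -1.04, -0.14 and -0.11 in trained arrays, against 0.22, 0.95 and -0.52 in control arrays, and the groups overlapped. SII trained arrays 1 and 2 lay at the floor, and IPS control arrays 1, 2 and 3 lay 0.64, 0.08 and 1.41 log2 above it. IPS trained arrays 1, 2 and 3 lay 1.36, 2.51 and 1.46 log2 above it, so measured from the floor the IPS groups overlapped. The array highest above the floor was SII control array 2, at 2.76 log2. The change was 1.33 ± 0.48 in IPS (unadjusted p = 0.0185, adjusted p = 0.9999 in limma) and -0.65 ± 0.48 in SII. The IPS change exceeded the SII change by 1.98 ± 0.66 (unadjusted p = 0.0133, adjusted p = 0.9999 in limma). With 1 common floor the IPS change was 0.78 ± 0.31 and the difference between regions 1.24 ± 0.44. The IPS change was 1.39 without the 3 arrays with raised hybridisation controls. In the animals with both regions, IPS minus SII was 1.26 and 0.78 in the trained animals and -1.67 and -0.67 in the control animals.

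NGFR probe set 2 (MmugDNA.11249.1.S1_at), in the middle class, had 0.91, -0.60 and -0.19 in IPS trained arrays, against 0.67, 0.62 and 0.13 in IPS control arrays. In SII it had -0.13, -0.80 and -0.25 in trained arrays, against -2.41, 0.81 and 0.28 in control arrays. The groups overlapped in both regions, and SII control array 1 lay far below the other 11. The changes were -0.41 ± 0.72 in IPS and 0.04 ± 0.72 in SII. The 2 probe sets were weakly and inversely related over the 12 arrays (r = -0.20), and their mean differed by 0.47 ± 0.40 in IPS and -0.31 ± 0.40 in SII.

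**Figure D3:**
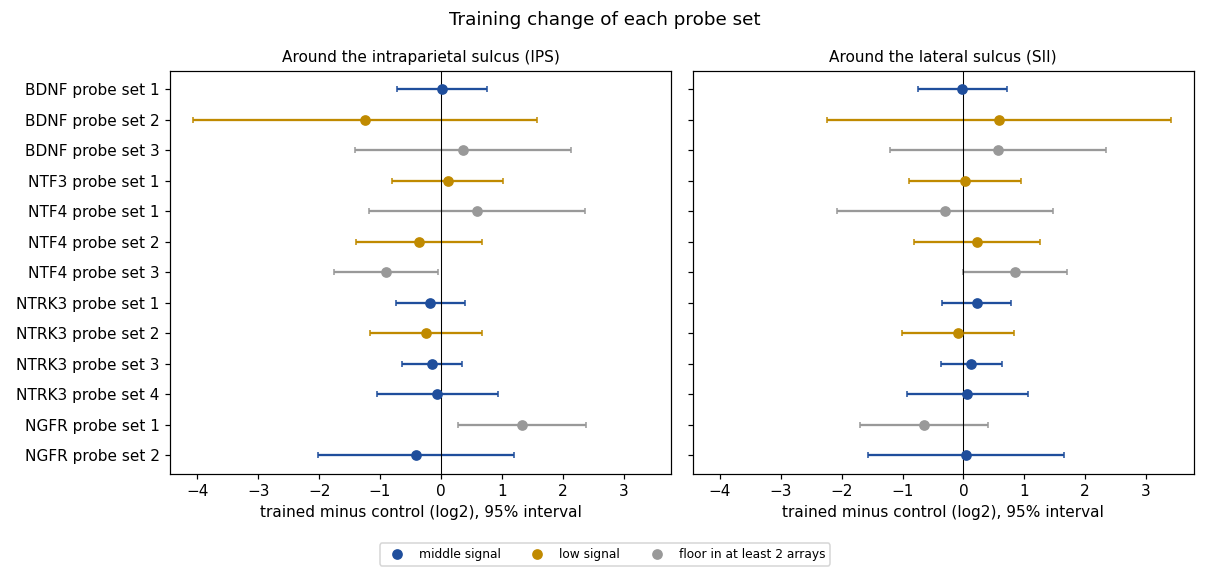
Training change (trained minus control, log2, x axis) of each probe set (y axis) in IPS and in SII, with 95% intervals as lines and colours for the signal class. The points run from -1.25 to 1.33 in IPS and from -0.65 to 0.85 in SII, and the only intervals that leave out 0 are those of NTF4 probe set 3 and NGFR probe set 1 in IPS.

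Across the 5 genes, the gene means of IPS trained, IPS control, SII trained and SII control arrays could rarely be put in order. Neighbouring groups differed by less than their pooled SD for every pair of neighbours in BDNF, NTF3, NTF4 and NTRK3. In NGFR, IPS trained arrays averaged 0.38 ± 0.17 and IPS control arrays -0.06 ± 0.21 (SD, n = 3 each), a step of 0.45 against a pooled SD of 0.19, and the remaining neighbours did not differ beyond it. With the spread of all 4 groups, the NGFR change in IPS was 0.47 ± 0.40 (SE, unadjusted p = 0.261, adjusted p = 0.9999 in limma). Its 2 probe sets changed in opposite directions there, and without the probe set that touched the floor the change was -0.38. The within-group SD of the members was 0.20 to 0.98 in the middle class, 0.52 to 1.75 in the low class and 0.48 to 1.09 among those that touched the floor. Over all probe sets the median SE of a training change was 0.31 in the middle class, 0.59 in the low class and 0.76 at the floor.

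The genes around the neurotrophins were taken as 5 lists. Of all gene means, 54.6% were higher with training in IPS and 54.5% in SII, beside which the counts of direction stand. The processing list holds proteases, sorting receptors and release factors of the precursors, of which 10 of 17 listed genes were measured. In IPS 7 of the 10 were higher and 3 lower (median change 0.06, against 0.03 for all genes) and in SII 6 were higher and 4 lower (0.04, against 0.03). None passed 5% after adjustment in limma, nor had an unadjusted p under 0.05. SORL1, a sorting receptor for neurotrophin receptors and precursors, averaged 0.22 ± 0.44 in IPS trained and -0.19 ± 0.21 in IPS control arrays, and 0.05 ± 0.03 in SII trained and -0.32 ± 0.21 in SII control arrays (SD, n = 3 each). Its changes were 0.41 ± 0.23 in IPS and 0.38 ± 0.23 in SII, and both were 0.08 with probe sets of middle and high signal only. PCSK2, a prohormone convertase, differed by 0.23 ± 0.23 in IPS, and HAP1, a carrier protein of BDNF vesicles whose only probe set touched the floor, by 0.67 ± 0.54 in SII. The HAP1 change was 0.17 without SII trained array 2 and 1.46 without SII trained array 3.

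The list of Trk adaptors and signalling proteins had 26 of 33 genes measured. In IPS 13 were higher and 13 lower (median 0.01) and in SII 15 were higher and 11 lower (0.05), with 0 past 5% in limma and 1 and 0 at an unadjusted p under 0.05, where the background over gene means was 2.87% and 3.49%. That gene was KIDINS220, a scaffold protein of Trk receptors and p75, at -1.27 ± 1.53 in IPS trained and 0.46 ± 0.47 in IPS control arrays (change -1.72 ± 0.62, unadjusted p = 0.0195, adjusted p = 0.9999). It was -0.88 without IPS trained array 2 and -2.41 without IPS trained array 3. The change of KIDINS220 in SII was 0.89 ± 0.62. GAB2, a docking protein, differed by -0.36 ± 0.18 in IPS, and SHC2, a Trk adaptor, by 0.58 ± 0.28 in SII.

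Of the partners of p75, 15 of 23 were measured, with 11 higher and 4 lower in IPS (median 0.09) and 8 higher and 7 lower in SII (0.04). Of all gene means, 54.6% were higher in IPS and 54.5% in SII. None had an unadjusted p under 0.05. IRAK1, a kinase downstream of p75, differed by -0.49 ± 0.35 and TRAF6, a ubiquitin ligase that binds it, by 0.42 ± 0.44 in IPS. RIPK2, a kinase that binds its intracellular domain, differed by 0.30 ± 0.21 and PRDM4, a zinc finger partner, by 0.20 ± 0.16 in SII.

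Of the regulators of BDNF transcription, 16 of 19 were measured, with 11 higher and 5 lower in IPS (median 0.10) and 8 higher and 8 lower in SII (-0.04). Of all gene means, 54.6% were higher in IPS and 54.5% in SII. In IPS 2 of the 16 had an unadjusted p under 0.05, as did 2.87% of all gene means, and 0 passed 5% in limma. USF1, which binds E-box elements, averaged 0.68 ± 0.11 in IPS trained and -0.54 ± 0.39 in IPS control arrays (change 1.18 ± 0.32, unadjusted p = 0.00393, adjusted p = 0.9999). CRTC1, a coactivator of CREB, averaged -0.03 ± 0.31 in IPS trained and -0.67 ± 0.15 in IPS control arrays (change 0.65 ± 0.29, unadjusted p = 0.0452, adjusted p = 0.9999). In the same arrays BDNF differed by -0.30 ± 0.41 as a gene mean, with its probe sets 1, 2 and 3 at 0.02, -1.25 and 0.37. In SII, USF1 differed by 0.44 ± 0.32 and CRTC1 by 0.02 ± 0.29. CRTC1 averaged 0.38 ± 0.49 in SII trained and 0.35 ± 0.34 in SII control arrays. Also in SII, ARNT2, a dimer partner of activity-induced factors, differed by 0.28 ± 0.18 and MEF2A, an activity-regulated factor, by -0.24 ± 0.16.

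Of the genes that BDNF is known to induce in cultured neurons, 19 of 27 were measured, with 14 higher and 5 lower in IPS (median 0.08) and 12 higher and 7 lower in SII (0.05). Of all gene means, 54.6% were higher in IPS and 54.5% in SII. None had an unadjusted p under 0.05. FOS, an immediate early transcription factor, averaged -0.41 ± 0.58 in IPS trained and 0.22 ± 0.42 in IPS control arrays. NR4A1, an immediate early nuclear receptor, averaged -0.70 ± 0.72 in IPS trained and -0.05 ± 0.12 in IPS control arrays. In SII, CRH, a stress peptide, differed by 0.27 ± 0.25 and VGF, a secreted neuropeptide precursor, by 0.21 ± 0.20. The differences in IPS of FOS (-0.62 ± 0.49) and NR4A1 (-0.65 ± 0.52) were smaller than 2 of their standard errors.

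**Figure D4:**
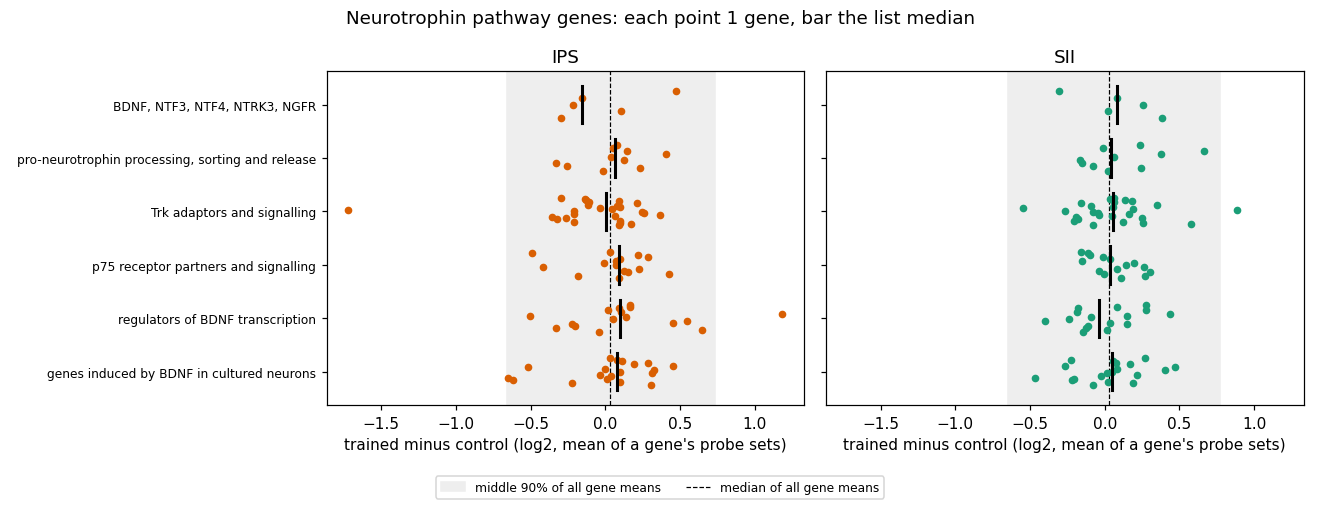
Training change (trained minus control, log2, x axis) of the 5 neurotrophin and receptor genes and of each measured gene of the 5 lists (y axis) in IPS and in SII, 1 point a gene, with a bar for the median, a dashed line for the median of all genes and a grey band for the middle 90% of them. The 5 list medians lie between 0.01 and 0.10 in IPS and between -0.04 and 0.05 in SII, beside 0.03 for all genes in each region.

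For each gene, the probe set of its highest signal class without a value at the floor (the most variable where several were in that class) was also correlated over the 12 arrays with the probe sets of other genes in the middle or high class. The genes most like BDNF probe set 1 were BZW1 (r = 0.94), MRPS16 (0.91) and GIMAP7 (0.90). Those most like NTF3 were CGREF1 (0.92), MRPS9 (0.91) and DAZAP1 (0.90), and those most like NTF4 probe set 2 were CAPRIN1 (0.91), TIMM44 (0.88) and CACNB1 (0.87). NTRK3 probe set 4 was most like C1QL2 (0.97), KMT2A (0.96) and ZNF827 (0.96), and NGFR probe set 2 was most like YPEL5 (0.95), CSE1L (0.95) and MYZAP (0.94). The probe set in the 100th place, of 15121 to 15124 candidates, still reached 0.75 to 0.87 for these 5. The named genes are therefore only the top of a long run of high values, and the source of the likeness was not tested.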

How the data were processed

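Total RNA was extracted with a lipid tissue kit, checked for quality, and labelled with biotin by a 3′ in vitro transcription kit, per the labels' protocols. MAS5, which gives 1 signal per probe set, is the only tool named, per the submitters' processing notes. The deposited values are on a log scale taken as log2, in a table with each probe set's median over the 12 arrays at 0 (within 2.5e-07). The log base, the scaling between arrays and the step that centred the probe sets are not given in the sources used here. The centring takes out each probe set's level and its detection call, and no signal over background can be given.

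The table had 52865 probe sets. After removal of 99 controls, 24956 carried a single symbol, 361 carried several and 27449 carried none. A floor was called where at least 2 arrays of a probe set sat at the lowest value, after alignment of the arrays' floors within 3e-05. No sign of a signal under 16 or under 256 in at least 11 arrays defined the middle and high classes. That sign is often missing at very low signals. In probe sets that touched the floor, 0% of values up to 1 log2 above it showed the spacing of signals under 16. Of those 1 to 2 log2 above it, 3.03% did. These shares count a single exact spacing, whereas the classes also counted finer ones. By the class count, NTF4 probe set 3, which stayed within 2.02 log2 of the floor, showed that sign in 0 of 12 arrays. limma 3.58.1 with statmod 1.5.0 in R 4.3.3 fitted 4 group means on all 12 arrays, with a correlation between arrays of an animal of 0.05 (0.09 over gene means), on 8 residual and 2.22 prior degrees of freedom. p-values are 2-sided, with Benjamini-Hochberg adjustment over 52766 probe sets or 14132 gene means (the mean of a gene's probe sets), and a gene or probe set was called at 0.05. A fit without the allowance for animals was checked on simulated normal values that had no floor, so the fit as used was not checked in full. Every member probe set is described. Of each pathway list, the 2 genes with the smallest p in IPS and the 2 in SII are named, and for likeness the 3 genes with the highest correlation. The members and lists were chosen with earlier results of these data known. The number of arrays, 3 a group, and the signal class limit the precision. Alternatives were other scalings, weights, covariates, blocks, filters and floors, and left-out arrays.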

Additional observations from a re-analysis of the deposited data

How the results depend on the processing

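With 3 arrays a group, many of the small member changes held no firm sign, and none of the results recomputed passed 5% in limma under any alternative. These were 11 changes of the gene means of the members, 9 of single probe sets (BDNF 1, NTF3 1, NTF4 3, NTRK3 1 and NGFR 1), 20 of pathway genes, and those of CD74 and LUM. The other member probe sets, and NGFR probe set 1 in SII, were not recomputed under all of them. NTF4 probe set 3 (in IPS, in SII and their difference), NGFR probe set 1 (in IPS and the difference) and NTRK3 probe set 1 (between regions) kept their sign under all alternatives run, and the adjusted p of the region difference of NTRK3 probe set 1 lay between 0.177 and 0.684. The gene means of NTF4 and NTRK3 in SII and of NTRK3 between regions, and NTF3 probe set 1 between regions, also kept their sign. NTF4 in SII fell to 0.0026 without SII trained array 1. Quantile normalization turned the BDNF probe set 1 change in IPS to -0.024 and the NTF3 change in SII to -0.061, and array medians set to 0 turned the NTF3 change in SII to -0.0285. Age as a covariate gave -0.16 for BDNF probe set 1 in IPS, 0.095 in SII, and -0.11 for NTF3 in SII. With middle and high signals only, BDNF was 0.031 in IPS and -0.0068 in SII, and NGFR was -0.35 in IPS and 0.024 in SII. Without floor probe sets, NGFR was -0.38 in IPS and 0.033 in SII, since only its probe set 2 is left. Without the 3 arrays with raised hybridisation controls, an alternative added after seeing the data as were the floor removal and the region average, NTF3 was -0.0396 in IPS and CRH -0.057 in SII, and CRH was -0.029 with male animals only. The cause was not tested for the other settings.

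Leaving out 1 array at a time moved 10 of the 11 changes of gene means, 3 of the 9 of single probe sets and 13 of the 20 of pathway genes by over 1.5 times, and turned the sign of 5, 2 and 1 of them. It gave -0.28 to 0.31 for BDNF probe set 1 in IPS and -0.26 to 0.18 in SII. NTF3 ran from -0.054 to 0.21 in IPS (lowest without IPS trained array 3) and from -0.31 to 0.43 in SII (lowest without SII control array 2). NTF4 in IPS ran from -0.46 to 0.024 (highest without IPS control array 2) and NTRK3 in IPS from -0.28 to 0.028 (highest without IPS trained array 1). NGFR in SII ran from -0.80 to 0.19 (highest without SII control array 2) and TRAF6 in IPS from -0.11 (without IPS control array 2) to 0.80.

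Counts of probe sets past 5%, which are 0 in all 6 comparisons, became 1 (quantile normalization), 2 (array weights), 2 (sex as a covariate), 2 (common floor) and 1 (middle and high signals only) for training in SII. The average training change had 1 and the region in trained animals 2 with middle and high signals only, and the region in trained animals had 3 with quantile normalization and 5 with a common floor. The region in control animals had 4 with quantile normalization, 30 with array weights, and 1 each with array medians set to 0, sex as a covariate, male animals only, and middle and high signals only. The difference of the training changes had 1 without the 3 arrays. With 1 array left out, the counts ran from 0 to 3 for training in SII, from 0 to 14 for the region in control animals and from 0 to 11 in trained animals, each highest without SII trained array 3. They ran from 0 to 2 for training in IPS and for the difference, highest without IPS trained array 1, and from 0 to 3 for the average, highest without IPS control array 2.

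The labels do not say whether the same replicate numbers pair trained and control arrays, and they were not treated as pairs. Deviations of arrays with the same number correlated at -0.20 to 0.06, and 2 of 12 arrays were closest to their own number. With deviations from means of only 3 arrays, a weak pairing might not show. The fit with a replicate block left 0 calls in all 6 comparisons and BDNF probe set 1 at -0.0065 in IPS.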

Other observations

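Training was also tested over the 8 animals in place of the 12 arrays, with each animal's regions averaged after the region means were taken off. Trained minus control was largest for NGFR, at 0.16. It was 0.08 for NTF4, 0.02 for NTRK3 and NTF3, and -0.01 for BDNF. The 2-sided exact permutation p over 70 regroupings lay between 0.629 and 0.971, unadjusted for the 5 genes, where the smallest it allows is 0.0286.

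The microglia markers were lower in IPS than in SII in 6 of 6 genes (median change -0.43), with 0 called in limma and 3 at an unadjusted p under 0.05, as had 10.7% of all gene means. With training in IPS, 4 of the 6 were higher and 2 lower (median change 0.18), the lower being AIF1 at -0.43 and CSF1R at -0.22. CD74, an antigen-presentation chaperone, averaged 0.39 ± 0.16 in IPS trained and -0.78 ± 0.78 in IPS control arrays (SD, n = 3 each), a change of 1.19 ± 0.40 (unadjusted p = 0.0124, adjusted p = 0.9999 in limma), or 0.75 without IPS control array 1. With training in SII, 2 of 7 meninges and fibroblast markers were higher and 5 lower (median change -0.24), SLC13A4 at 0.43 among the higher. LUM, a matrix proteoglycan of fibroblasts with 1 of its 3 probe sets at the floor, averaged -1.03 ± 0.94 in SII trained and 0.53 ± 0.51 in SII control arrays, a change of -1.53 ± 0.50 (unadjusted p = 0.0119, adjusted p = 1 in limma), or -1.01 without SII trained array 2. CD74 and LUM were chosen after their values were seen.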
